A study of Homo sapiens with 4 samples.

Results

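The genes described here are the glucose transporters, the glycolytic enzymes with their regulators, and the hypoxia response genes of H358 cells, chosen by name as every probe of the array whose platform gene symbol was on a list of 35 genes. Probes were listed for 34 of them, and all 34 passed the detection filter, among 12197 genes tested in all. The remaining gene, CA9, was not analysed here. The list held 2 glucose transporters, 15 glycolytic enzymes, 2 lactate dehydrogenase subunits, 3 regulators of glycolysis, 12 targets of the hypoxia response that are not enzymes of glycolysis ("hypoxia-only targets"), and HIF1A. H358 is an established epithelial line from a human lung adenocarcinoma. Cells transfected with shRNA against ADAR, an enzyme that edits adenosine to inosine in double-stranded RNA, were compared with cells transfected with a scrambled sequence, on 2 Illumina bead arrays each. Both ADAR shRNA arrays share the label ADAR B, and the labels do not say what B stands for. The shRNA sequence, the time after transfection and the oxygen level of the cultures were not given in the sources used here. Nothing in the labels says that the 2 arrays of a group came from separate cultures, so p-values measure only the spread between these arrays, which may be technical.

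Glycolysis splits glucose into pyruvate in the cytoplasm, and lactate dehydrogenase turns pyruvate into lactate when it is not passed to the mitochondria. When oxygen is short, the prolyl hydroxylases that mark the alpha subunits of the hypoxia-inducible factors for destruction slow down, and the stabilised factors switch on genes that hold a hypoxia response element. These include most enzymes of glycolysis as well as genes of vessel growth, mitophagy and collagen folding, and many lung tumours show raised glucose uptake.

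ADAR itself gave normalized log2 intensities of 9.88 and 10.19 on the ADAR shRNA arrays, against 10.89 and 11.23 on the scrambled arrays. It fell by 1.03 (standard error, SE, 0.21, limma with Benjamini-Hochberg adjusted p = 0.00292, 2 arrays per group). This value is from the brighter of 2 ADAR probes past the detection filter, and 17.8% of all genes tested had a lower change. All log2 changes are ADAR shRNA minus scrambled, and a gene is said to rise or fall at an adjusted p under 0.05. The arrays labelled ADAR shRNA lacked defining markers of the labelled line. EPCAM and CDH1, defining genes of epithelial cells, were not detected on either of them and were at least 260-fold and at least 113-fold lower there. NKX2-1, a transcription factor of lung epithelium, was not detected on them either and was at least 5.71-fold lower. Over all genes tested, arrays correlated at 0.765 to 0.795 across groups, against 0.987 within ADAR shRNA and 0.984 within scrambled. Whether both groups are cells of the same line was not tested, so for every change below an effect of the shRNA and a difference between cell populations cannot be told apart. Of 10 markers of an epithelial lung line, 8 were tested, 6 fell and MUC1 rose, and their summed raw signal was 2998 and 2723 on the ADAR shRNA arrays against 26539 and 25283 on the scrambled arrays. Of the 10, 5 were detected on both ADAR shRNA arrays and 8 on both scrambled arrays. KRT7, KRT8, KRT18, KRT19 and MUC1 were those still detected, with KRT19 at raw signals of 1468 and 1248 against 6408 and 5544. SFTPB and SCGB3A2 were not detected on any array. Of 8 markers of blood cells, CD14 and CD68 rose, PTPRC, LYZ, HBB and CD3E were not detected, and the sums were 2368 and 2930 against 1396 and 1305. Of 10 markers of fibroblasts and endothelium, PDGFRB rose and LUM and COL1A1 fell, with sums of 560.3 and 571.9 against 807.9 and 702.6. The part of these differences in the results below was not tested. In bulk RNA, fewer cells expressing a gene and less of its RNA per cell cannot be told apart. Raw signal was lower overall on the ADAR shRNA arrays, with upper quartiles of 94.5 and 92.1, against 143 and 115 for scrambled.

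The genes moved in both directions. The transporter SLC2A3 and the collagen prolyl hydroxylase P4HA1 showed the largest rises among the members detected in both groups, at 4.39 and 1.92 on the log2 scale. PFKFB4, EGLN3 and PKM showed the largest falls, at -2.17, -1.97 and -1.94. In all, 8 of the 34 genes rose, 9 fell and 17 did not pass the test. The background in this comparison was high: 57.8% of all genes tested changed, 25.5% rising and 32.2% falling, against 23.5% and 26.5% of the members. Their median change was -0.18, beside -0.08 over all genes tested. Under median scaling between arrays 3 members rose and 16 fell, and the rises of PFKP, ENO2, LDHB, P4HA2 and ANKRD37 did not pass. Shares over all genes are given under quantile normalization only. Counts under other scalings, here and below, therefore have no background beside them. The groups did not overlap for 24 of the 34 members, where 79.3% of all genes tested had no overlap. Under quantile normalization the share of members that moved was thus no larger than over all genes tested. Members correlated at 0.987 between the ADAR shRNA arrays and 0.974 between the scrambled arrays, and at 0.793 to 0.853 across groups, over 34 genes measured on shared arrays.

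**Figure D1:**
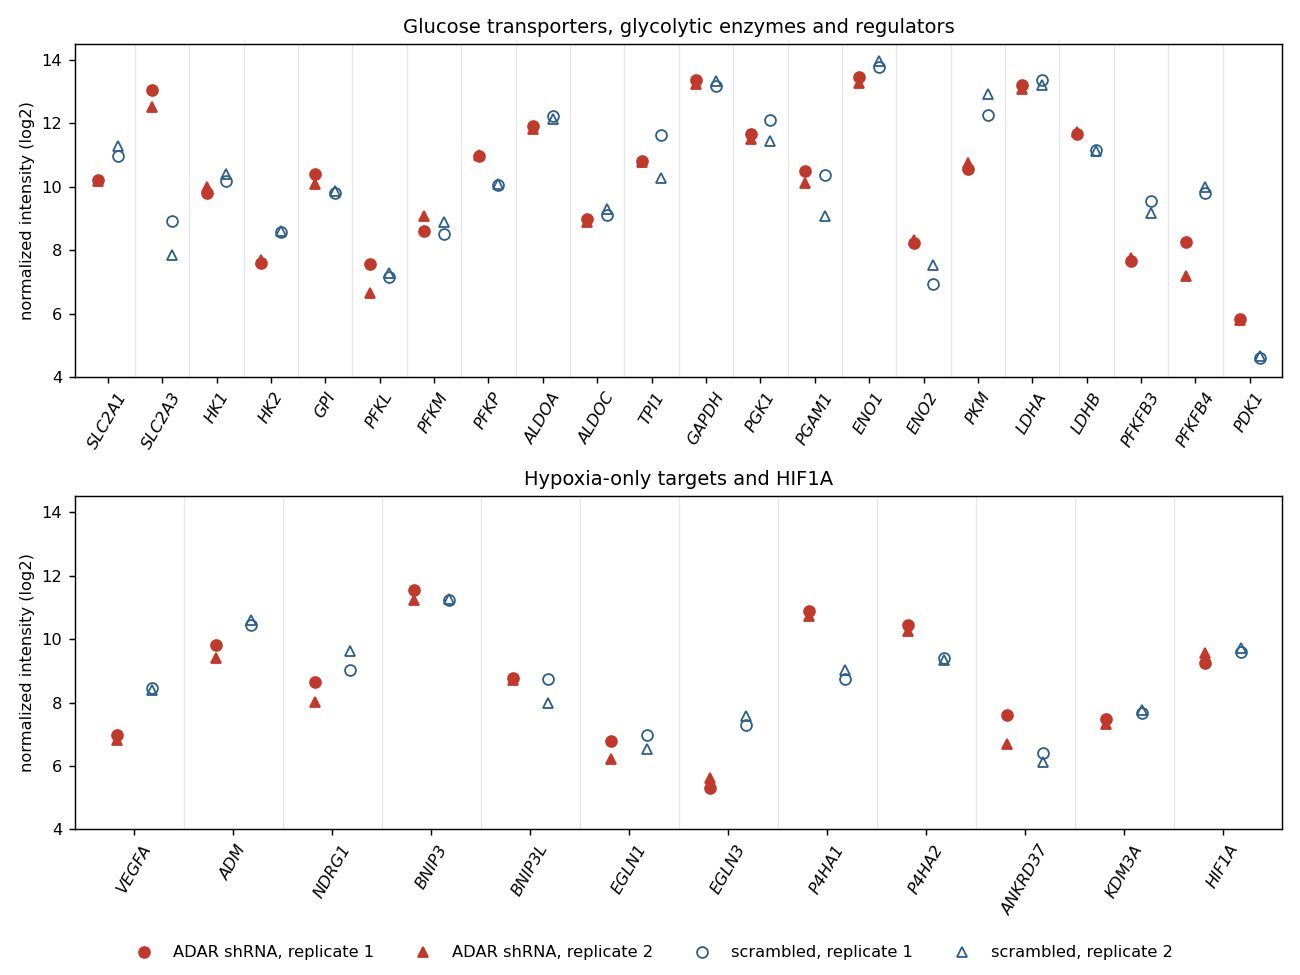
Normalized log2 intensity (vertical axis) of the brightest probe of each member on every array, with glycolysis genes in the upper panel and hypoxia-only targets with HIF1A in the lower. Red filled symbols are ADAR shRNA arrays and blue open symbols scrambled arrays, circles for replicate 1 and triangles for replicate 2. SLC2A3 lies at 13.06 and 12.51 on ADAR shRNA arrays, above 8.94 and 7.86 on scrambled arrays, while TPI1 and PGAM1 show a wide gap between the scrambled replicates.

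Promoters are shown for HK2 and ADM, which fell, P4HA1 and ANKRD37, which rose, and LDHA, which did not pass the test, because the core letters of the hypoxia response element are present in members of all 3 kinds. Each runs from 250 bases before to 50 after the annotated start of the gene in RefSeq, assembly GRCh38.p14, and capitals mark matches to ACGTG or GCGTG on either strand (CACGT and CACGC on the strand shown). A palindromic CACGTG counts as 2 overlapping matches. HK2 lies at chr2:74833877-74834176 on the plus strand with 3 matches, ADM at chr11:10304823-10305122 on the plus strand with 1, and P4HA1 at chr10:73096817-73097116 on the minus strand with 1. ANKRD37 lies at chr4:185396591-185396890 on the plus strand with 3 matches, and LDHA at chr11:18394313-18394612 on the plus strand with 6.
HK2: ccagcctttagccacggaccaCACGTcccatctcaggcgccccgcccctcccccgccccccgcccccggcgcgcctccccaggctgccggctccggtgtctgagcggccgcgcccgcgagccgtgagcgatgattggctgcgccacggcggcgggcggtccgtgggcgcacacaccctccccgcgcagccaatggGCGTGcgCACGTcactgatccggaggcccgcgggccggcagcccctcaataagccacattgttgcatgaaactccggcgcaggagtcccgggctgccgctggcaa
ADM: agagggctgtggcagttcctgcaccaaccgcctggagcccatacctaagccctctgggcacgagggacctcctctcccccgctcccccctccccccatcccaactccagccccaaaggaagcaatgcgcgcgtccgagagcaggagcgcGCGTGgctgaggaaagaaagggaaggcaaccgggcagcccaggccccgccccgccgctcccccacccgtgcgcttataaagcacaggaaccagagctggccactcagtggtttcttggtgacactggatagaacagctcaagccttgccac
P4HA1: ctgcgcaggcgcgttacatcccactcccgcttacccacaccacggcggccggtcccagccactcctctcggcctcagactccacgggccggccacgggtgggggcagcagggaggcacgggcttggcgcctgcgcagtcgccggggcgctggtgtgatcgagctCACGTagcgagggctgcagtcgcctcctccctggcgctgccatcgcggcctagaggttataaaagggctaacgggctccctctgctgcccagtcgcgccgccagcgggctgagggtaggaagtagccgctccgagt
ANKRD37: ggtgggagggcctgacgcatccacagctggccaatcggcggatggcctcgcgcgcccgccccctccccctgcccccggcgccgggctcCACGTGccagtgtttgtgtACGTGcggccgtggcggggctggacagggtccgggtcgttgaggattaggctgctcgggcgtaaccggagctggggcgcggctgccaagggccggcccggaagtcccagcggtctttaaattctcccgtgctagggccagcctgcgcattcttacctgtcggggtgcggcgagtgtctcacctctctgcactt
LDHA: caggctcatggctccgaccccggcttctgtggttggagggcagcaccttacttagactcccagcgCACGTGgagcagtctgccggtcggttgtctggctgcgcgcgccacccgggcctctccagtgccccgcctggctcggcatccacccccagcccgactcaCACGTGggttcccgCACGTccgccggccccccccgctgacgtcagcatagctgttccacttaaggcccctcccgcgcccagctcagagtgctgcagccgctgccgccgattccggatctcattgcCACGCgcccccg
Of 31 listed genes with a promoter in the RefSeq table, CA9 among them, 23 (74.2%) held a match, beside 62.9% of 9769 promoters of genes tested here and 48.4% of all 35116 promoters of the table. The median GC content was 69.7% for members and 65% for the promoters of genes tested. A match was present in 4 of 7 members that rose, 6 of 7 that fell and 12 of 16 that did not pass the test. It was present in 12 of 17 enzymes with lactate dehydrogenase and, with CA9, in 7 of 9 hypoxia-only targets. The letters were thus found in members of either direction, and no match says only that they are not in this window.

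The 2 glucose transporters moved in opposite directions. SLC2A3 encodes a high-affinity glucose transporter best known from neurons. Its normalized log2 intensity was 13.06 and 12.51 on the ADAR shRNA arrays, against 8.94 and 7.86 on the scrambled arrays, or raw signals of 8357 and 5443 against 786.1 and 304.8. It rose by 4.39 (SE 0.34, 95% interval 3.62 to 5.16, adjusted p = 9.1e-06), a fold of 21.0, and 99.3% of all genes tested had a lower change. The scrambled arrays differed by 1.07 for this probe, less than the distance to the ADAR shRNA arrays. SLC2A1, the widespread basal transporter, had 10.22 and 10.18 on the ADAR shRNA arrays against 10.97 and 11.28 on the scrambled arrays. It fell by 0.93 (SE 0.19, adjusted p = 0.00317), and the groups did not overlap.

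Hexokinases trap glucose in the cell by adding a phosphate. HK2, the inducible hexokinase of many tumours, had 7.60 and 7.70 on the ADAR shRNA arrays, against 8.57 and 8.59 on the scrambled arrays. It fell by 0.93 (SE 0.18, adjusted p = 0.00213), with arrays of a group lying close together. Its other probe gave -0.29 (SE 0.21, adjusted p = 0.284 over all probes). HK1, the constitutive hexokinase, had 9.80 and 9.99 against 10.17 and 10.41, a difference of -0.39 (95% interval -0.83 to 0.04) that did not pass the test although its groups did not overlap. GPI, which turns the glucose phosphate into a fructose phosphate, had 10.39 and 10.08 against 9.79 and 9.85, a difference of 0.42 (95% interval -0.02 to 0.86) that did not pass either.

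Phosphofructokinase is the main controlled step of glycolysis, and its platelet, liver and muscle subunits did not move alike. PFKP, the platelet-type subunit, had 10.98 and 10.99 on the ADAR shRNA arrays, against 10.05 and 10.09 on the scrambled arrays. It rose by 0.92 (SE 0.18, adjusted p = 0.0022). PFKL, the liver-type subunit, averaged 7.10 ± 0.63 in ADAR shRNA cells and 7.23 ± 0.09 in scrambled cells (SD, n = 2 each), a difference of -0.13 (95% interval -0.76 to 0.51). PFKM, the muscle-type subunit, averaged 8.84 ± 0.32 and 8.69 ± 0.28, a difference of 0.14 (95% interval -0.38 to 0.66). The groups overlapped for PFKL and PFKM, so neither could be told from no change at this spread.

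PFKFB3 and PFKFB4, which set the level of the sugar bisphosphate that activates phosphofructokinase, both fell. PFKFB4 had 8.27 and 7.19 on the ADAR shRNA arrays, against 9.82 and 9.98 on the scrambled arrays. It fell by 2.17 (SE 0.32, 95% interval -2.88 to -1.45, adjusted p = 0.000403), a fold of 4.49, and the ADAR shRNA arrays lay 1.08 apart. PFKFB3, the form with the highest kinase activity, had 7.65 and 7.74 against 9.56 and 9.16. It fell by 1.66 (SE 0.20, adjusted p = 0.000144), and its other probe fell by 0.96 (adjusted p = 0.00534 over all probes). These regulators thus moved opposite to the PFKP subunit.

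The middle steps, run by aldolase, triose phosphate isomerase, GAPDH, phosphoglycerate kinase and phosphoglycerate mutase, showed no change past the threshold at their brightest probes, although other probes of PGK1 and TPI1 fell. GAPDH, often used as a loading control, averaged 13.30 ± 0.09 in ADAR shRNA cells and 13.26 ± 0.12 in scrambled cells, a difference of 0.04 (95% interval -0.39 to 0.46), and its other probes gave 0.02 and 0.07. ALDOA, the main aldolase of muscle and many tumours, averaged 11.87 ± 0.07 and 12.19 ± 0.07, a difference of -0.32 (95% interval -0.74 to 0.09). ALDOC, the brain-type aldolase, averaged 8.93 ± 0.06 and 9.21 ± 0.13, a difference of -0.27 (95% interval -0.69 to 0.15). At their brightest probes the aldolases had groups that did not overlap, by less than the test could call. The other tested probes of ALDOA went the other way without passing. They gave 0.23 and, for a dim probe not detected on the scrambled arrays, 0.50 (adjusted p = 0.766 and 0.0589 over all probes).

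For the next 3 enzymes the value of the brightest probe depended on the scrambled replicates. TPI1, which interconverts the triose phosphates, had 10.80 and 10.77 on the ADAR shRNA arrays, against 11.62 and 10.29 on the scrambled arrays. PGAM1, which moves the phosphate of phosphoglycerate, had 10.48 and 10.11 against 10.38 and 9.06. PGK1, the first step that makes ATP, had 11.66 and 11.52 against 12.11 and 11.43. For each of them the groups overlapped. The differences were -0.17 for TPI1 (adjusted p = 0.708), 0.57 for PGAM1 (adjusted p = 0.218) and -0.19 for PGK1 (adjusted p = 0.543). Without scrambled replicate 1 they were 0.50, 1.23 and 0.15, where PGAM1 passed (adjusted p = 0.00679). Without scrambled replicate 2, TPI1 fell (-0.84, adjusted p = 0.0174) and PGAM1 gave -0.09. The brightest probes therefore settle no direction for these enzymes. The other probe of PGK1 fell by 1.14 and that of TPI1 by 0.66 (adjusted p = 0.00183 and 0.0347 over all probes), and with the mean of its detected probes PGK1 fell by 0.66 (adjusted p = 0.0133).

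The enolases, which make phosphoenolpyruvate, differed by isoform. ENO2, the enolase of neurons and neuroendocrine cells, had 8.23 and 8.32 on the ADAR shRNA arrays, against 6.94 and 7.53 on the scrambled arrays. It rose by 1.04 (SE 0.23, adjusted p = 0.00406), a fold of 2.06. ENO1, the widespread enolase, had 13.46 and 13.26 against 13.77 and 13.95, a difference of -0.50 (95% interval -0.93 to -0.06, adjusted p = 0.0504). ENO1 missed the threshold narrowly and passed it under 7 alternative settings, at adjusted p of 0.0139 to 0.0499.

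PKM, which makes pyruvate and ATP in the last step, had the largest fall of the 15 glycolytic enzymes. Its normalized log2 intensity was 10.56 and 10.75 on the ADAR shRNA arrays, against 12.26 and 12.94 on the scrambled arrays, or raw signals of 1219 and 1392 against 6221 and 7468. It fell by 1.94 (SE 0.24, 95% interval -2.50 to -1.39, adjusted p = 0.000168), a fold of 3.85. Its other probes fell by 1.41 and 1.52 (adjusted p = 0.00559 and 0.000408 over all probes). The fall was thus seen by all 3 PKM probes.

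The fate of pyruvate is set by lactate dehydrogenase and by the kinases of pyruvate dehydrogenase. LDHA, the subunit that favours lactate, had 13.21 and 13.07 on the ADAR shRNA arrays, against 13.37 and 13.20 on the scrambled arrays, a difference of -0.15 (95% interval -0.57 to 0.28) with overlapping groups. LDHB, the subunit of the heart, had 11.67 and 11.74 against 11.17 and 11.12. It rose by 0.56 (SE 0.18, adjusted p = 0.0261), a fold of 1.47, but without any 1 of the 4 arrays in turn its adjusted p was 0.059 to 0.109. PDK1, which inhibits pyruvate dehydrogenase, had 5.83 and 5.80 against 4.61 and 4.66, and was not detected on either scrambled array. It rose (adjusted p = 0.000526) and was at least 1.999-fold higher, with raw signals of only 83.2 and 80.2 against 64.5 and 60.4.

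**Figure D2:**
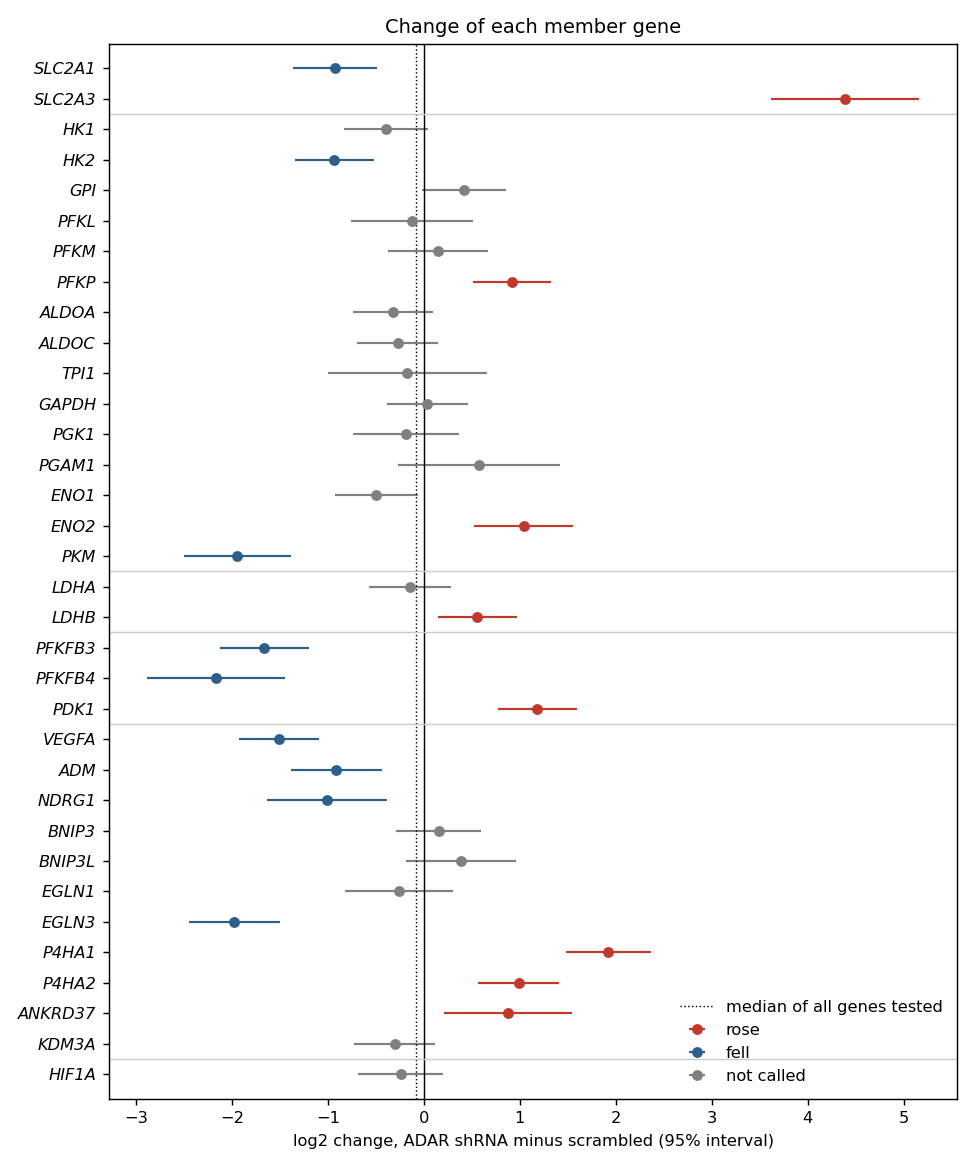
Log2 change of each member (horizontal axis, ADAR shRNA minus scrambled) with its 95% interval from limma, in red for genes that rose, blue for genes that fell and grey for genes that did not pass. Grey lines part the transporters, enzymes, lactate dehydrogenase, regulators, hypoxia-only targets and HIF1A. Most middle enzymes have intervals across 0, while SLC2A3 at 4.39 and PFKFB4 at -2.17 mark the extremes.

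Of the hypoxia-only targets, EGLN3, VEGFA, ADM and NDRG1 fell, and P4HA1, P4HA2 and ANKRD37 rose. EGLN3, an oxygen-sensing prolyl hydroxylase that is itself induced in hypoxia, had 5.29 and 5.63 on the ADAR shRNA arrays, against 7.29 and 7.57 on the scrambled arrays. It fell by 1.97 (SE 0.21, 95% interval -2.44 to -1.50, adjusted p = 5.55e-05). EGLN1, the main oxygen sensor, averaged 6.50 ± 0.41 in ADAR shRNA cells and 6.76 ± 0.30 in scrambled cells, a difference of -0.26 (95% interval -0.82 to 0.31). The hydroxylases therefore split into 1 with a wide gap between groups and 1 whose groups overlapped.

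VEGFA, the main growth factor of vessels, had 6.98 and 6.83 on the ADAR shRNA arrays, against 8.44 and 8.38 on the scrambled arrays. It fell by 1.51 (SE 0.18, adjusted p = 0.000137), and its other detected probe fell by 1.28 (adjusted p = 0.00298 over all probes). ADM, the precursor of the vasodilator adrenomedullin, had 9.83 and 9.39 against 10.45 and 10.60. It fell by 0.91 (SE 0.21, adjusted p = 0.00521). NDRG1, a stress-responsive gene linked to differentiation, had 8.63 and 8.01 against 9.02 and 9.64. It fell by 1.01 (SE 0.28, adjusted p = 0.0119), a call that was lost without ADAR shRNA replicate 2 (-0.70, adjusted p = 0.0818) and without scrambled replicate 2 (-0.70, adjusted p = 0.095).

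The collagen prolyl hydroxylases, which let collagen form a stable triple helix, rose together. P4HA1 had 10.88 and 10.74 on the ADAR shRNA arrays, against 8.75 and 9.02 on the scrambled arrays. It rose by 1.92 (SE 0.19, 95% interval 1.48 to 2.36, adjusted p = 4.46e-05), a fold of 3.79. P4HA2 had 10.44 and 10.27 against 9.40 and 9.33, and rose by 0.99 (SE 0.18, adjusted p = 0.00173). All 5 tested probes of P4HA1 and P4HA2 rose. Another P4HA2 probe, detected on every array, rose by 0.77. The other P4HA1 probe was not detected on either scrambled array, so it passed the detection filter only through the arrays where it was high. The remaining P4HA2 probe was detected on 1 scrambled array. For these dim probes no size is given. ANKRD37, an ankyrin-repeat gene induced in hypoxia, had 7.60 and 6.68 against 6.41 and 6.12. Its rise of 0.88 (SE 0.29, adjusted p = 0.0291) was the least stable call of the hypoxia-only targets: it was 0.41 without ADAR shRNA replicate 1 (adjusted p = 0.215), and it was lost too without either scrambled replicate (1.02 and 0.73, adjusted p = 0.0608 and 0.155).

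The mitophagy receptors and the histone demethylase did not pass the test. BNIP3 averaged 11.39 ± 0.23 in ADAR shRNA cells and 11.23 ± 0.02 in scrambled cells, a difference of 0.15 (95% interval -0.29 to 0.60). BNIP3L averaged 8.75 ± 0.04 and 8.36 ± 0.52, a difference of 0.39 (95% interval -0.18 to 0.96), and passed without scrambled replicate 1 (0.76, adjusted p = 0.0244). KDM3A, a histone demethylase, averaged 7.41 ± 0.12 and 7.71 ± 0.06, a difference of -0.30 (95% interval -0.72 to 0.11). The groups overlapped for BNIP3 and BNIP3L and did not for KDM3A. HIF1A, the inducible subunit of the hypoxia factor, is controlled mainly as a protein, which the arrays do not measure. Its transcript had 9.26 and 9.57 against 9.60 and 9.72, a difference of -0.24 (95% interval -0.69 to 0.20), with no overlap between groups, and its other probes gave 0.09 and 0.18.

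Set against each other, the enzymes of glycolysis with lactate dehydrogenase moved in a narrower range than the hypoxia-only targets, mainly at the upper end. Of 17 enzymes, 3 rose, 2 fell and 12 did not pass, with a median change of -0.15 and a range of -1.94 to 1.04. Of 11 hypoxia-only targets tested, 3 rose, 4 fell and 4 did not pass, with a median of -0.26 and a range of -1.97 to 1.92. The lower ends, PKM and EGLN3, lay close together. The upper end of the targets rests on P4HA1 alone, since the next rise, that of P4HA2, was 0.99, below 1.04 for ENO2. Called genes made up 29.4% of the enzymes and 63.6% of the hypoxia-only targets, beside 57.8% of all genes tested. The groups did not overlap for 10 of the 17 enzymes and 8 of the 11 targets, beside 79.3% of all genes tested. These counts describe the lists, and their difference was not tested. Under quantile normalization both lists held rises and falls. Under median scaling, which also lowered the median change of all genes, 0 enzymes rose and 6 fell. Of the hypoxia-only targets, 1 then rose, and VEGFA, ADM, NDRG1, EGLN3, EGLN1 and KDM3A fell. No share over all genes is given for that scaling.

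**Figure D3:**
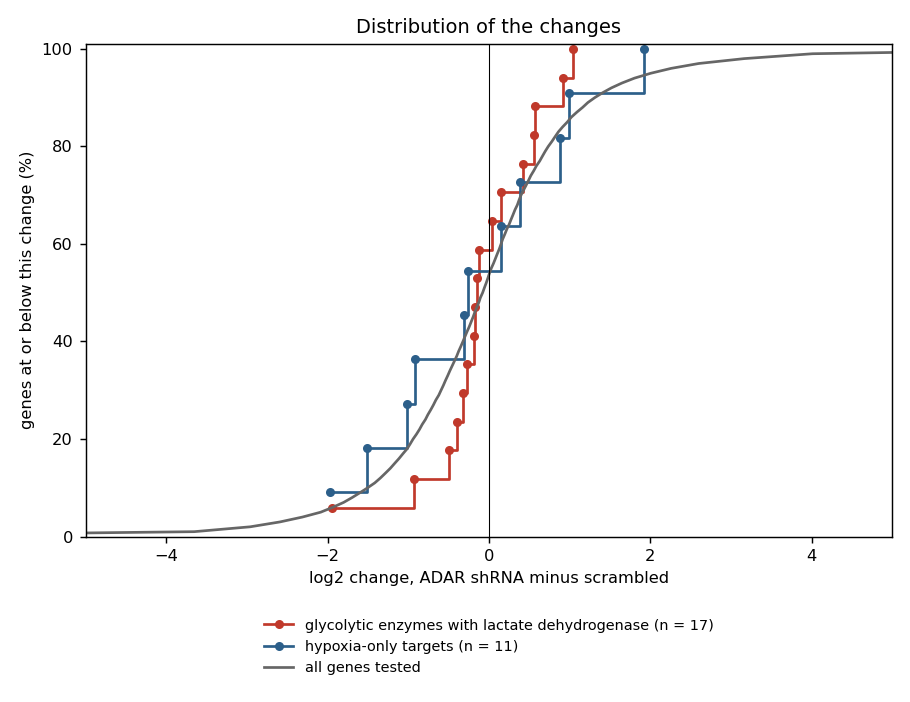
Share of genes at or below each log2 change (vertical axis in percent, horizontal axis ADAR shRNA minus scrambled), in red for the 17 enzymes with lactate dehydrogenase, in blue for the 11 hypoxia-only targets and in grey for all genes tested. The red steps rise steeply near 0, with a median of -0.15, and the blue steps spread from -1.97 to 1.92. The axis is cut at 5 in either direction.

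The probes of a gene did not always give the same answer. The members had 61 probes, of which 6 were not detected on any array and 55 were tested. Of these, 12 rose and 15 fell, where 24.2% of all probes tested rose and 26.3% fell (50.6% changed). For 15 members with several tested probes, those of PKM, P4HA1, P4HA2, PFKFB3 and VEGFA passed in 1 direction each. The dimmer P4HA1 probe was not detected on either scrambled array, and the dimmest P4HA2 probe was detected on only 1 of them. PGK1 was divided: its brightest probe gave -0.19, while the other had 10.01 and 9.85 on the ADAR shRNA arrays against 10.98 and 11.16 on the scrambled arrays and fell by 1.14 (adjusted p = 0.00183 over all probes). TPI1 was divided likewise, with its other probe at 10.70 and 10.31 against 11.06 and 11.27, a fall of 0.66 (adjusted p = 0.0347 over all probes). Another case was LDHA, whose dimmest probe rose by 0.71 (adjusted p = 0.0308 over all probes) while the bright ones gave -0.15 and -0.34. GAPDH, PGK1, PGAM1, TPI1, ENO1 and LDHA have pseudogene copies that a probe may also bind, so their values are less certain.

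**Figure D4:**
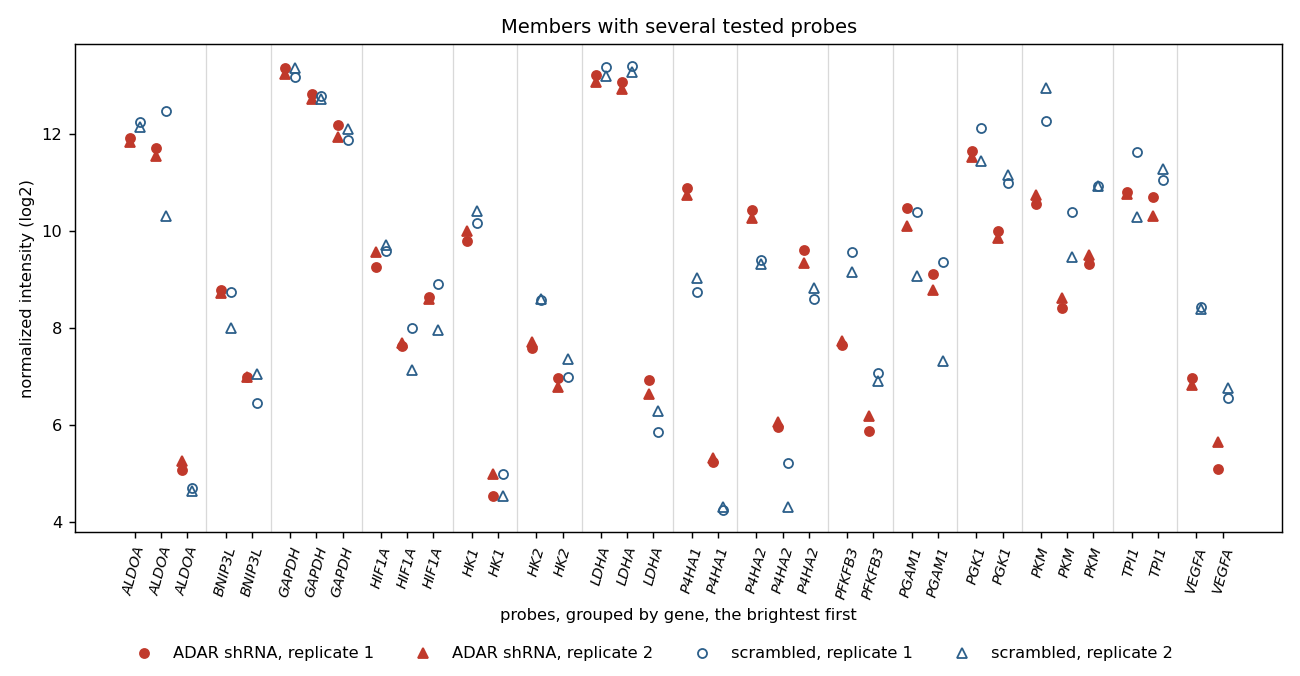
Normalized log2 intensity (vertical axis) of every tested probe of the 15 members with several, brightest first within a gene. Red filled symbols are ADAR shRNA arrays and blue open symbols scrambled arrays, circles for replicate 1 and triangles for replicate 2. The PKM probes all lie lower on ADAR shRNA arrays, while the second probe of ALDOA spans 2.17 between the scrambled replicates.

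Some glycolysis probes lay far apart between the scrambled arrays. A gap above 1 log2 unit between them was present for 5 of the 55 member probes (9.09%), against 2.23% of all 21263 probes tested. All 5 were higher in scrambled replicate 1: 1 probe of ALDOA by 2.17, both probes of PGAM1 by 2.03 and 1.32, 1 probe of TPI1 by 1.34 and that of SLC2A3 by 1.07. That direction was general: over all probes tested, 457 of 475 such gaps were higher in scrambled replicate 1. Between the ADAR shRNA arrays 1 member probe, that of PFKFB4, had such a gap, against 0.912% of all probes. The standard error over the beads of the members' brightest probes was 1.80% to 13.7% of the signal, with a median of 4.30%, and the highest was that of SLC2A3 on scrambled replicate 2.

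Of the rises, 3 held under every scaling between arrays. Quantile normalization put the median change of all genes at -0.08, median scaling put it at -0.54 and no normalization at -0.68. Under all 3, SLC2A3, PDK1 and P4HA1 rose, and SLC2A1, HK2, PKM, PFKFB3, PFKFB4, VEGFA, ADM, NDRG1 and EGLN3 fell. PDK1 was not detected on either scrambled array, so it passed the detection filter only through the arrays where it was high. The rises of PFKP, ENO2, LDHB, P4HA2 and ANKRD37 were lost under median scaling, at 0.36, 0.39, 0.14, 0.35 and 0.33. The raw signals of some of them overlapped between groups: P4HA2 had 1133 and 977 on the ADAR shRNA arrays against 1053 and 794.7 on the scrambled arrays, and LDHB had 2808 and 2916 against 3244 and 2515. Falls grew instead, to -1.47 for SLC2A1, -1.61 for HK2 and -2.14 for VEGFA under median scaling, and HIF1A, HK1, ALDOA, ALDOC, PFKM, EGLN1 and KDM3A then fell too. Relative to the median gene under that scaling, SLC2A1, HK2 and VEGFA lay at -0.93, -1.07 and -1.59, against -0.85, -0.85 and -1.43 under quantile normalization. Of the added falls, PFKM and ALDOA lay at -0.03 and -0.06 from that median, and the others at -0.46 to -0.25. Measured from the median of all genes, 13 members lay above it and 17 below it under all 3 scalings.

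**Figure D5:**
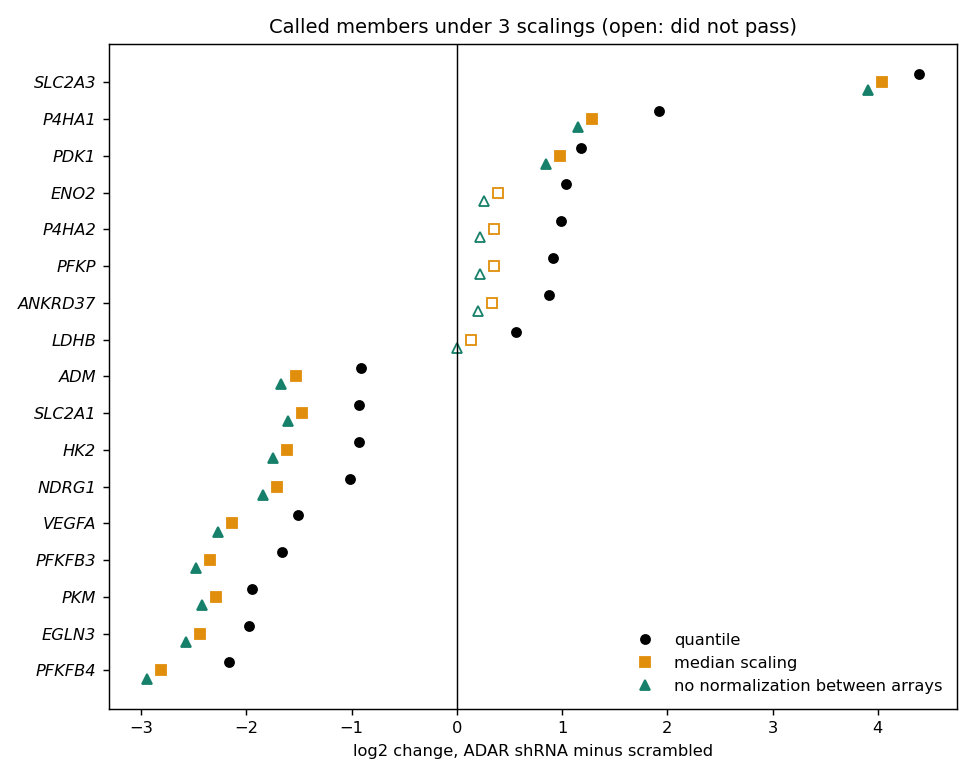
Log2 change (horizontal axis, ADAR shRNA minus scrambled) of the 17 members that rose or fell, under quantile normalization (circles), median scaling (squares) and no normalization between arrays (triangles), with open symbols where the change did not pass. The 9 falls pass under each, while of the 8 rises only SLC2A3, P4HA1 and PDK1 do.

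Regulators of the hypoxia factors moved in both directions too. Of 13 tested, 2 rose and 6 fell, with a median of -0.44, beside 25.5% that rose and 32.2% that fell over all genes tested. Under median scaling 10 fell, and 3 fell without ADAR shRNA replicate 2 or without scrambled replicate 2. EPAS1, the alpha subunit prominent in endothelium and kidney tumours, had 9.91 and 10.39 on the ADAR shRNA arrays against 8.09 and 7.92 on the scrambled arrays, and rose by 2.15 (adjusted p = 4.49e-05). CITED2, which competes with the alpha subunits for the coactivators EP300 and CREBBP, had 9.97 and 9.66 against 7.97 and 7.78, and rose by 1.94 (adjusted p = 5e-05). ELOC and RBX1, parts of the ubiquitin ligase that destroys the alpha subunits, fell by 1.89 and 1.67 (adjusted p = 5.02e-05 and 0.000152). EGLN2, a prolyl hydroxylase named after its values were seen, had 8.66 and 8.74 against 9.97 and 10.06, and fell by 1.31 (adjusted p = 0.000299). The transcripts of EPAS1 and HIF1A thus did not move alike, the first rising and the other not passing.

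Further targets of the hypoxia response moved both ways. Of 20 tested, 8 rose (5 under median scaling) and 8 fell, 40% each, beside 25.5% and 32.2% of all genes tested, with a median of 0.15. CA12, a carbonic anhydrase of the cell surface, had 10.40 and 10.44 on the ADAR shRNA arrays against 5.91 and 4.47 on the scrambled arrays. It rose (adjusted p = 7.26e-06), but it was not detected on scrambled replicate 2, so no size is given. The other CA12 probe was not detected on either scrambled array. PPP1R3C, which steers a phosphatase to glycogen, had 11.72 and 11.08 against 6.99 and 6.63, and rose by 4.59 (adjusted p = 1.51e-06). PGF, a placental growth factor, and LOX, which cross-links collagen, were not detected on either ADAR shRNA array, and were at least 3.63-fold and at least 2.60-fold lower there (adjusted p = 2.56e-05 and 5.05e-05).

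Genes beside the main path of glycolysis, and those that pass pyruvate to the mitochondria, held some large changes. Of 9 side genes tested, 5 rose (3 under median scaling) and 2 fell, with a median of 0.74, where 25.5% of all genes tested rose and 32.2% fell. PCK2, the mitochondrial enzyme that makes phosphoenolpyruvate from oxaloacetate, had 9.70 and 9.04 on the ADAR shRNA arrays against 6.83 and 6.97 on the scrambled arrays, and rose by 2.47 (adjusted p = 3.65e-05). Another PCK2 probe, detected on 1 scrambled array, rose too (adjusted p = 0.00357 over all probes). The last, not detected on either scrambled array, did not pass (0.29, adjusted p = 0.232 over all probes). ENO3, the enolase of muscle, rose by 1.52 (adjusted p = 0.000162). FBP1, which reverses the phosphofructokinase step, and LDHC, the lactate dehydrogenase of testis, were not detected on the ADAR shRNA arrays, and were at least 4.18-fold and at least 4.02-fold lower (adjusted p = 1.38e-05 and 2.48e-05). Of 11 genes of pyruvate entry to mitochondria, 3 rose and 2 fell, with a median of -0.12, against 1 and 8 under median scaling. PDK4, a kinase that shuts pyruvate dehydrogenase in fasting, had 9.12 and 9.05 against 5.77 and 6.19, and rose by 3.11 (adjusted p = 4.03e-06). PDP1, the phosphatase that reopens it, had 4.47 and 4.34 against 7.36 and 7.71, and was at least 6.15-fold lower (adjusted p = 3.28e-06). PDHB, a subunit of pyruvate dehydrogenase, fell by 1.02 (adjusted p = 0.00127). DLD, a component that it shares with related complexes, rose by 1.08 (adjusted p = 0.00498), but not under median scaling (0.39).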

How the data were processed

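Total RNA of H358 cells was hybridised to 4 Illumina arrays. Per the file headers, the deposited table lists for each of 47322 probes its mean linear intensity with the number of beads behind it, their standard error, and a p-value for detection against negative controls. GenomeStudio made them, per the submitters' processing notes, version not given. A second deposited table holds the authors' processed intensity values of the same probes, whose normalization is not given in the sources used here; it served as an alternative.

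Intensities were background corrected in limma 3.58.1 (R 4.3.3, normexp from detection p-values, offset 16), log2 transformed, then quantile normalized. The deposited values were not log2 before the log2 step. Probes with a detection p under 0.05 on at least 2 of 4 arrays were kept (21263). The platform annotation gave 1 symbol to 30113 probes and several to 8, and did not list 17201. The brightest named probe stood for each of 12197 genes, and every probe was also fitted. Groups were compared with lmFit and eBayes (2 residual and 6.83 prior degrees of freedom, 2-sided, Benjamini-Hochberg over all genes or all probes), with no replicate block. The number of arrays limits the precision. Where a gene was not detected on either array of a group, the fold is a bound: the brighter group's mean against the mean, per dim array, of the higher of the lowest detected signal and the gene's own. The fit was tested on simulated data.

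The members and all lists were chosen with earlier results of these data known. All members are described. Of each further list the 2 largest rises and 2 largest falls past the threshold are named.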

Additional observations from a re-analysis of the deposited data

How the results depend on the processing

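The named genes were recomputed under 11 other settings and without each array in turn. Of these gene values, 725 kept their direction and side of the threshold, 23 no longer passed, 28 newly passed and 24 turned direction. With 2 arrays per group, small changes could not be resolved, and the causes below were not tested. Median scaling gave 3 members that rose and 16 that fell, 0 and 6 of the enzymes, 1 hypoxia-only target that rose, 4 member probes that rose, and medians of -0.54 for enzymes and -0.80 for hypoxia-only targets. No normalization between arrays gave 3 and 17, 0 and 7, 1, 4, and medians of -0.67 and -0.93. For the further lists these scalings are given in the text or differ from it by 1 gene. Without background correction 4 enzymes fell. With the mean of all detected probes 4 enzymes fell and their median was 0.043. Without 1 array in turn, 6 to 8 members rose and 8 to 9 fell, 2 to 3 enzymes rose and 2 to 3 fell, 2 to 3 hypoxia-only targets rose and 3 to 4 fell, 8 to 12 member probes rose and 12 to 15 fell, and the medians were -0.22 to -0.055 for enzymes and -0.39 to 0.033 for hypoxia-only targets. A lone array is assumed to vary like the other group. Direction turned under median scaling for GPI (-0.20), PFKM (-0.57), PGAM1 (-0.048), BNIP3 (-0.29) and BNIP3L (-0.31), and with no normalization for GPI (-0.33), PFKM (-0.70), PGAM1 (-0.18), BNIP3 (-0.42) and BNIP3L (-0.45). It turned under cyclic loess for LDHA (0.079), and with the mean of probes for ALDOA (0.14), LDHA (0.074) and HIF1A (0.0087). Without 1 array in turn, direction turned for 8 members not called with all arrays: PFKL ranged from -0.57 to 0.32, PFKM from -0.085 to 0.37, TPI1 from -0.84 to 0.50, GAPDH from -0.048 to 0.12, PGK1 from -0.52 to 0.15, PGAM1 from -0.087 to 1.23, BNIP3 from -0.011 to 0.32 and EGLN1 from -0.54 to 0.033. NDRG1 and ANKRD37 also missed the threshold with no filter on detection (adjusted p = 0.0536 and 0.103), where more genes are tested. The replicate numbers are shared labels only: deviations of same-numbered arrays correlated at 0.106 over genes. With the replicate block, 9 members rose and 10 fell (PGAM1 and ENO1 added), and all genes called numbered 7488, against 7044 without it.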
